A study of Mus musculus with 35 samples.

Results

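The members described here are 6 mature microRNAs (miRNAs) of the miR-30 family and 1 protein-coding gene, Nfyc. The miRNAs, taken by name from a table of 485 mouse miRNAs, are mmu-miR-30a-5p, mmu-miR-30b-5p, mmu-miR-30c-5p, mmu-miR-30d-5p, mmu-miR-30e-5p and mmu-miR-30e-3p, written without the species prefix from here on. Nfyc was taken as the host gene of Mir30e from a table of 18947 genes. All 6 miRNAs were found and all 6 passed the filter on low counts, so 7 members were described in all.

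The study profiled mouse fat depots. Small RNA of 13-week-old C57BL/6J animals gave 18 miRNA libraries, 3 each of interscapular brown adipose tissue (iBAT) and of the depots labelled eWAT (epididymal white fat), mWAT, iWAT, aWAT and cWAT. By the protocol, the fat pads came from males at room temperature, and inguinal pads also from mice held at 4 °C for 1 week. It does not say which libraries the cold-housed animals gave, and no label spells out mWAT, iWAT, aWAT or cWAT, so the 5 white groups are named as labelled and cWAT may be cold-housed inguinal fat. The mRNA comparison set 4 iBAT against 4 eWAT samples of C57BL/6J males aged 15 weeks. All are whole tissues with no treatment and no genetic change in the labels, and 9 Argonaute CLIP samples were not analysed here. Nothing in the labels says that libraries of a depot came from separate animals, so p-values measure the spread between these libraries.

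miRNAs are short RNAs cut from hairpin precursors, and each hairpin can give a 5p and a 3p product. Base pairing of the seed, bases 2 to 8 of the mature miRNA, guides Argonaute to target transcripts, so miRNAs with the same seed can share targets. The miR-30 family is made from 3 pairs of hairpins. Mir30e and Mir30c-1 lie in an intron of Nfyc, the gene for the C subunit of NF-Y, a trimeric transcription factor of NF-YA, NF-YB and NF-YC that binds CCAAT boxes in promoters. miR-30 miRNAs have been described as promoting the formation of adipocytes and the thermogenic program of brown and beige fat.

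In GRCm38, Nfyc spans chr4:120757435-120831579 on the minus strand. Inside that span, on the same strand, lie Mir30e at chr4:120772606-120772697 and Mir30c-1 at chr4:120769534-120769622, 2983 bases apart. Mir30a at chr1:23272269-23272339 and Mir30c-2 at chr1:23291701-23291784 form the second pair, on the plus strand. Mir30b at chr15:68337415-68337510 and Mir30d at chr15:68341208-68341289 form the third. RefSeq (GRCm38.p6) gave mature sequences for 4 of the 6 member miRNAs, and the 5p arms are shown 5′ to 3′ with the seed in capitals because the shared seed defines the family.

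miR-30e-5p: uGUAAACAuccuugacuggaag
miR-30a-5p: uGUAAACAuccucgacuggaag
miR-30c-5p: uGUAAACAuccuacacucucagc

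These 3 arms share their first 12 bases. miR-30e-5p and miR-30a-5p differ by U13C alone, counted from 1 at the 5′ end with the miR-30e base first. A read with an error at that base can therefore be counted under the wrong name. The sources used here do not say how the authors assigned such reads. The 3p arms are shown next, again with bases 2 to 8 in capitals, because they tell the hairpins apart.

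miR-30e-3p: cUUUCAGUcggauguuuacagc
miR-30a-3p: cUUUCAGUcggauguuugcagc
miR-30c-1-3p: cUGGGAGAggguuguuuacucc
miR-30c-2-3p: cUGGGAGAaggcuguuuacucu

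miR-30e-3p and miR-30a-3p differ by A18G alone, so a read that ends before that base or has an error there can be counted under the wrong name. miR-30c-5p is cut from both Mir30c hairpins with the same letters, so its count cannot be assigned to one of them. The 3p arms of those hairpins differ at 3 positions (G9A, U12C and C22U from miR-30c-1-3p to miR-30c-2-3p) and can be counted apart. The hairpins with the sequences of both arms in capitals are as follows.

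Mir30e: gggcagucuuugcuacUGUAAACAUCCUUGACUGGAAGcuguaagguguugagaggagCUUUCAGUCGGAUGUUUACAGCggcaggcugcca
Mir30c-1: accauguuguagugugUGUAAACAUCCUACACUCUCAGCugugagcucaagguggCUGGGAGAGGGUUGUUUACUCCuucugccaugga
Mir30c-2: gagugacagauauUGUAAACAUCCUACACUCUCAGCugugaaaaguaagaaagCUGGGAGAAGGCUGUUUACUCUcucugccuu

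The miRNA libraries held between 1293407 and 6816555 reads. Values are normalized counts, that is, reads divided by a size factor per library, and tests are limma's moderated test on log2(normalized count + 1) over 436 miRNAs with Benjamini-Hochberg adjustment, a call being an adjusted p under 0.05. Differences are log2 values with the standard error (SE) of the fit. The aWAT libraries stood apart in muscle miRNAs. The 6 listed (miR-1a-3p, miR-133a-3p, miR-133b-3p, miR-206-3p, miR-208b-3p and miR-499-5p) summed to 561820, 177064 and 72365 normalized counts in aWAT, against 12570 to 23070 in iBAT and 464 to 25742 in the other white depots. miR-208b-3p was listed at 0 in all eWAT, mWAT, iWAT and cWAT libraries. Of the 5 muscle miRNAs tested, 1 was called higher in iBAT in all 5 comparisons. Both endothelial arms (miR-126a-3p and miR-126a-5p) were higher in iBAT in all 5 comparisons, with sums of 318000 to 347800 in iBAT and 130600 to 210000 in white depots. The 3 red blood cell miRNAs summed to 23180 to 35270 in iBAT and 7852 to 21460 in white depots, with 1 of the 3 called higher in all 5 comparisons. The 5 immune miRNAs summed to 12450 to 14760 in iBAT and 9057 to 56470 in white depots, with none of the 5 called higher in all comparisons. The sum hides opposite directions. miR-142a-3p, miR-142a-5p and miR-223-3p had iBAT means of 605, 5198 and 346, below the lowest white values of 701, 5549 and 676. The iBAT mean of miR-150-5p, 7267, was above those of eWAT, mWAT, iWAT and aWAT (2614 to 3909) and near that of cWAT (7274.5). That of miR-155-5p, 179, lay within the white range. In single comparisons 19.7% to 25.5% of all 436 miRNAs were called higher in iBAT, and the share called in all 5 was not counted. The 6 epithelial miRNAs summed to 15.8 to 38.8 in iBAT and 99.4 to 14800 in white depots, and miR-205-5p was listed at 0 in every iBAT library. The part of these cell types in the results below was not tested, and in whole tissue a change in cell numbers cannot be told apart from a change in RNA per cell.

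miR-30e-5p, the main product of the hairpin in Nfyc, was 4.95 to 7.65 times as abundant in iBAT as in any white depot. Its normalized counts were 242132, 210329 and 214570 in iBAT. The eWAT libraries had 33705, 32706 and 32383, mWAT had 28749, 30892 and 27490, iWAT had 33205, 42482 and 34567, aWAT had 43777, 36246 and 30647, and cWAT had 41622, 45561 and 47499. Every iBAT library lay above every white library, with no overlap. How many of all miRNAs tested separated in this way was not counted, here or for the arms below. miR-30e-5p was the third most abundant of all 485 miRNAs in each iBAT library, with 7.43% ± 0.31 of normalized counts (SD, n = 3), and ranked between 12 and 23 in white libraries, where it held 0.887% to 2.02%. The log2 differences of iBAT from eWAT, mWAT, iWAT, aWAT and cWAT were 2.75, 2.94, 2.60, 2.60 and 2.31, each with an SE of 0.12, and adjusted p-values ran from 6.09e-11 to 1.32e-09 (limma). Ordered by p among the 436 miRNAs tested it stood 1 to 3 in each of the 5 comparisons, and by size of the log2 difference 15 to 28.

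The other arm of the same hairpin, miR-30e-3p, was less abundant but followed the same order of iBAT over white. It had 5170, 4737 and 4826 normalized counts in iBAT. White libraries had 795 to 1326, with a median of 954. The groups did not overlap, and the log2 differences from eWAT, mWAT, iWAT, aWAT and cWAT were 2.48, 2.29, 2.49, 2.27 and 1.98 (SE 0.14, adjusted p from 8.65e-10 to 2.29e-08, limma).

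miR-30c-1-3p, the 3p arm of the second hairpin in Nfyc and no member by name, was rare and also high in iBAT. It had 178, 149 and 127 normalized counts in iBAT, from 72 to 169 reads a library. In white libraries it ranged from 9.83 to 41.3, from 8 to 110 reads, with a median of 29.6, so iBAT lay above all 15. The log2 differences were 2.65, 3.46, 1.94, 2.95 and 2.04 from eWAT, mWAT, iWAT, aWAT and cWAT (SE 0.28, adjusted p from 6.68e-08 to 3.42e-05, limma).

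**Figure D1:**
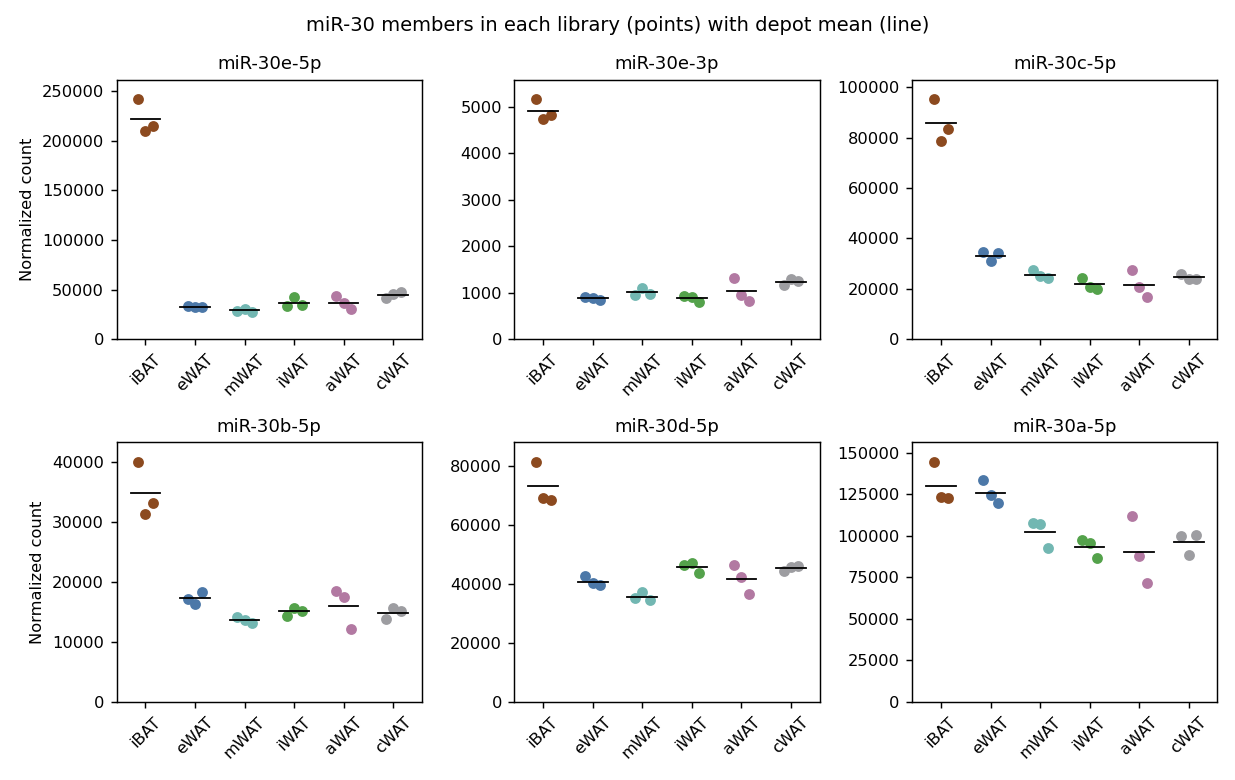
Normalized counts of the 6 member miRNAs (y axes from 0, scales differ) in each library (points) of the 6 depots (x axis), with the depot mean as a line. The iBAT libraries of miR-30e-5p lie between 210329 and 242132, above every white library, while for miR-30a-5p iBAT and eWAT overlap.

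miR-30c-5p, the arm shared by the Nfyc hairpin Mir30c-1 and by Mir30c-2 on chromosome 1, was 2.59 to 4.06 times as abundant in iBAT. Its normalized counts were 95416, 78895 and 83590 in iBAT. The eWAT libraries had 34586, 30922 and 34070, mWAT had 27349, 24957 and 24378, iWAT had 24405, 20731 and 20084, aWAT had 27371, 20725 and 16629, and cWAT had 26032, 24048 and 24064. No white library reached iBAT, and eWAT was the highest white depot. The log2 differences were 1.37, 1.75, 1.98, 2.02 and 1.79 from eWAT, mWAT, iWAT, aWAT and cWAT (SE 0.14, adjusted p from 2.28e-08 to 1.35e-06, limma).

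The 3p arms separated the hairpins that share miR-30c-5p. miR-30c-2-3p, from chromosome 1, had 361, 328 and 409 normalized counts in iBAT and 333 to 453 in white libraries, with a median of 381. The groups overlapped throughout, the log2 differences lay between -0.11 and -0.03 (SE 0.13), and none of the 5 was called (adjusted p from 0.487 to 0.853, limma), although scaling by library total called it lower in iBAT against eWAT, iWAT, aWAT and cWAT (-0.41 to -0.30, adjusted p from 0.0074 to 0.0374). The log2 ratio of miR-30c-1-3p to miR-30c-2-3p within a library was -1.02, -1.14 and -1.69 in iBAT and -5.15 to -3.15 in white libraries. With 1 added to each normalized count, miR-30c-1-3p had 0.311 to 0.495 times the value of miR-30c-2-3p in iBAT, and a geometric mean of 0.0365 times in mWAT up to 0.1 times in iWAT. Library scaling cancels in this ratio except for the added count of 1, which raises it slightly where miR-30c-1-3p is low. It was examined after both arms had been seen, so no test is given.

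**Figure D2:**
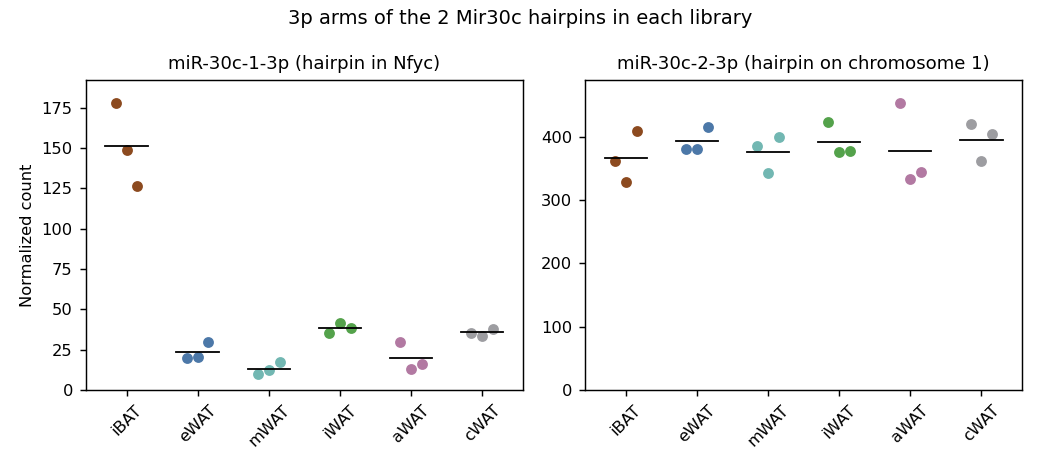
Normalized counts (y axes from 0) of the 3p arms of both Mir30c hairpins in each library (points) of the 6 depots, with the depot mean as a line. miR-30c-1-3p, from the hairpin in Nfyc, lies between 127 and 178 in iBAT and at 41.3 or less in white libraries, while miR-30c-2-3p lies between 328 and 453 in all depots.

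The chromosome 15 pair was higher in iBAT to a smaller degree. miR-30b-5p had 39989, 31205 and 33025 normalized counts in iBAT and 12093 to 18407 in white libraries (median 15212). miR-30d-5p had 81586, 69284 and 68676 in iBAT and 34614 to 47162 in white libraries (median 42706). In both cases all 3 iBAT libraries exceeded all 15 white ones. The log2 differences of miR-30b-5p ran from 1.00 against eWAT to 1.34 against mWAT (SE 0.14, adjusted p from 8.41e-07 to 1.64e-05, limma). Those of miR-30d-5p ran from 0.67 against iWAT to 1.03 against mWAT (SE 0.09, adjusted p from 3.01e-07 to 2.84e-05, limma). The 3p arms of this pair were called higher in iBAT in all 5 comparisons too, miR-30b-3p by 0.51 to 1.18 and miR-30d-3p by 0.91 to 1.58 on the log2 scale. The call of miR-30b-3p against iWAT was lost in the authors' deposited table (0.45, adjusted p = 0.0591), and without iBAT replicate 1, iWAT replicate 2 or iWAT replicate 3 (adjusted p = 0.104, 0.0774 and 0.144, limma). It was also lost with DESeq2 (0.0558), scaling by library total (0.245) and a fit of the 2 depots alone (0.0938).

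miR-30a-5p, from chromosome 1, was the member closest to equal across depots. It had 144518, 123305 and 122564 normalized counts in iBAT. The eWAT libraries had 133340, 124270 and 119585, mWAT had 107802, 106742 and 92280, iWAT had 97274, 95475 and 86345, aWAT had 111678, 87506 and 71413, and cWAT had 99602, 88224 and 100328. iBAT overlapped eWAT and lay above the other white depots. The log2 difference from eWAT was 0.05 (SE 0.14, adjusted p = 0.778, limma), and -0.19 when libraries were scaled by their totals (adjusted p = 0.134). The differences from mWAT, iWAT, aWAT and cWAT were 0.35, 0.48, 0.55 and 0.44 and were called (adjusted p = 0.0414, 0.0083, 0.00343 and 0.0153, limma). The call against mWAT was lost without any of 8 single libraries (each iBAT and mWAT library, eWAT replicate 2 and aWAT replicate 2, adjusted p from 0.0501 to 0.154, limma), and that against cWAT without iBAT replicate 1 (0.0712) or cWAT replicate 2 (0.0656). Scaling by library total instead gave 0.22 against iWAT and 0.13 against cWAT, neither called (adjusted p = 0.0896 and 0.32, limma). The call against mWAT was also lost with edgeR (adjusted p = 0.0679) and with TMM scaling (0.0638, limma), and that against aWAT when only those 2 depots were fitted (0.056, limma). Its 3p arm, miR-30a-3p, was called higher in iBAT against iWAT alone (0.43, adjusted p = 0.0401, limma), a call that was lost without any single iBAT library, iWAT replicate 2 or iWAT replicate 3 (adjusted p from 0.0763 to 0.137), with edgeR (0.0503) and with scaling by library total (0.17, adjusted p = 0.311). Its differences from the other 4 white depots lay between -0.23 and 0.26 and were not called. Without aWAT replicate 1 the difference from aWAT was 0.48 and was called (adjusted p = 0.00884, limma). It was called lower in iBAT than in eWAT with scaling by library total (-0.47, adjusted p = 0.00961, limma) and when those 2 depots were fitted alone (-0.23, adjusted p = 0.0202, limma).

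**Figure D3:**
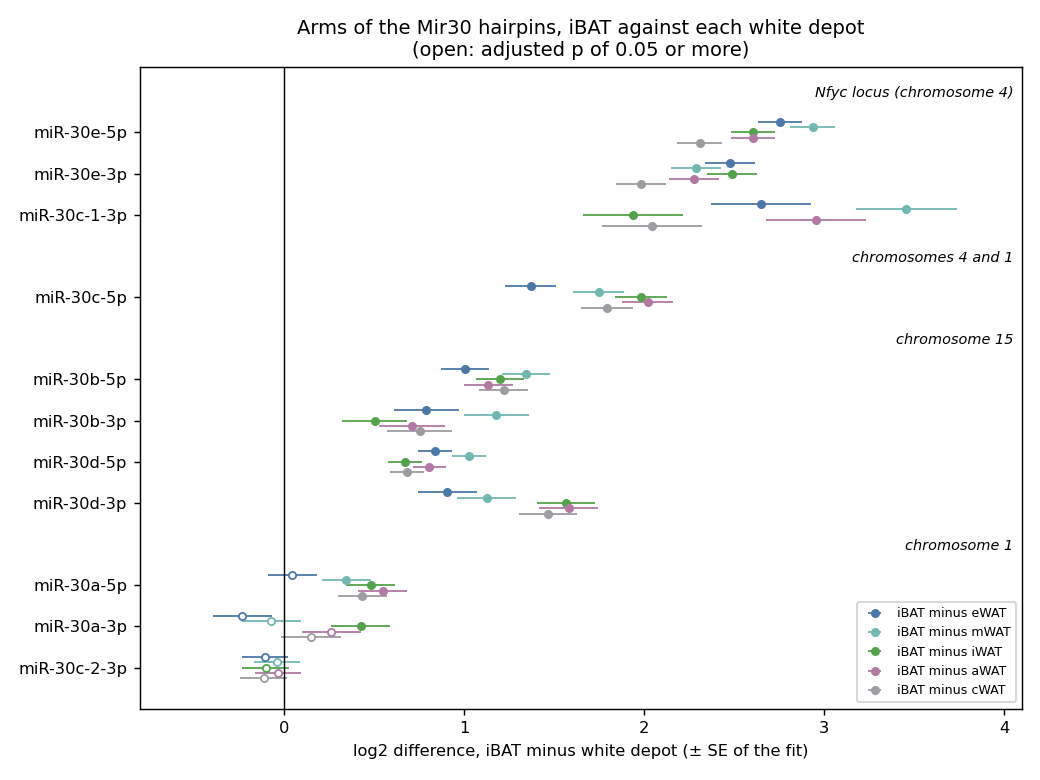
Log2 difference of iBAT from each white depot (x axis, bars are the SE of the fit) for the 11 measured arms of the Mir30 hairpins (y axis), grouped by genomic pair, with open points where the adjusted p was 0.05 or more. The arms made only from hairpins in Nfyc have differences of 1.94 to 3.46, those of the chromosome 15 pair 0.51 to 1.58, and those made only on chromosome 1 from -0.23 to 0.55.

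Counted together, 5 of the 6 members were called higher in iBAT against eWAT, where 25.5% of all miRNAs tested were. All 6 were called higher against mWAT (21.6% of all miRNAs tested), iWAT (24.5%), aWAT (22.2%) and cWAT (19.7%), and no member was called lower in any. The median log2 difference of the members was 1.19, 1.55, 1.59, 1.58 and 1.51 against eWAT, mWAT, iWAT, aWAT and cWAT, beside -0.14, -0.29, -0.11, -0.15 and -0.11 over all 436 miRNAs. Scaling by library total moved the median of all miRNAs by a further -0.03 (mWAT) to -0.3 (cWAT). miR-30e-5p then differed by 2.00 to 2.91 and was called in each.

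The family made up a larger share of the miRNA in iBAT than in white fat, and its makeup differed. The 5 5p arms together held 18.3% ± 1.01 of normalized counts in iBAT (SD, n = 3), against 9.89% ± 0.14 in eWAT, 7.06% ± 0.78 in mWAT, 8.51% ± 0.51 in iWAT, 8.26% ± 0.77 in aWAT and 9.34% ± 0.48 in cWAT. The total includes the muscle miRNAs, which held 3.19% to 19.45% in aWAT libraries and 0.019% to 1.06% in the others. Their effect on the aWAT share was not tested. Within the family, miR-30e-5p was the largest part in iBAT, with 40.7% ± 0.53, and had 12.9% to 20.8% in white libraries. miR-30a-5p had 23.8% ± 0.31 in iBAT and was the largest part in every white depot, with 40.2% to 51.0%. miR-30c-5p had 15.7% ± 0.32 in iBAT and 9.36% to 14.0% in white libraries. miR-30d-5p had 13.4% ± 0.21 in iBAT and 16.2% to 21.9% in white libraries, and miR-30b-5p had 6.34% ± 0.27 in iBAT and 6.10% to 8.53% in white libraries. In eWAT and mWAT the part of miR-30a-5p (48.1% to 51.0%) was above that in iWAT, aWAT and cWAT (40.2% to 45.1%), with no overlap of libraries.

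**Figure D4:**
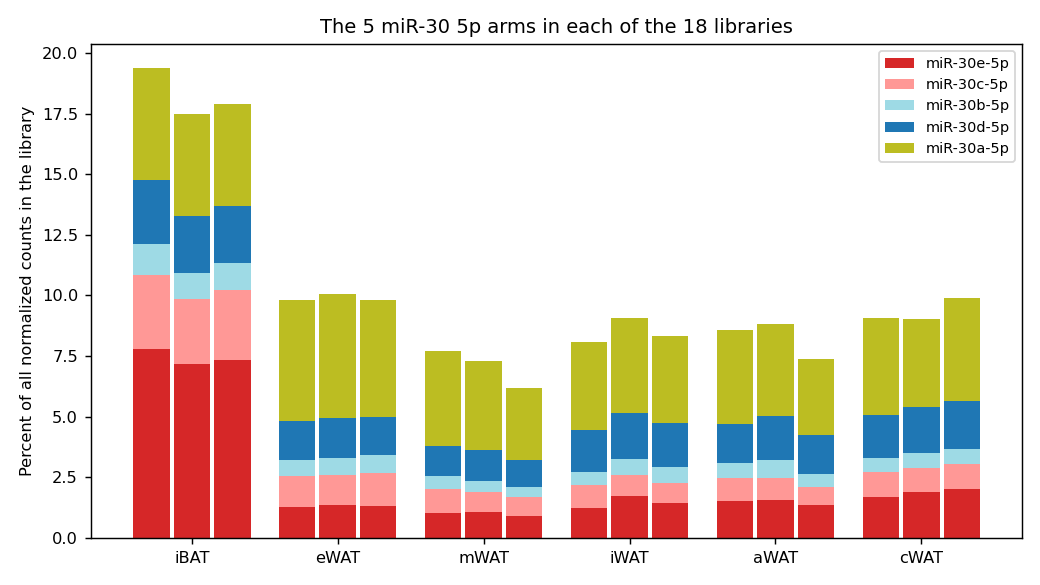
Percent of all normalized counts (y axis, from 0) held by the 5 miR-30 5p arms in each of the 18 libraries (bars, 3 per depot), stacked by arm. The stack reaches 17.5% to 19.4% in iBAT and 6.19% to 10.04% in white libraries, and the lowest segment, miR-30e-5p, is the largest in iBAT and smaller than that of miR-30a-5p in every white library.

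Ratios within a library remove the scaling, save for the added count of 1. Of these, 5 were tested by an exact two-sided permutation test of the 3 iBAT against the 15 white libraries, adjusted over the 5. The 816 possible arrangements allow no p below 0.00245. The test takes the 15 white libraries as exchangeable, although they come from 5 depots. miR-30e-5p outnumbered miR-30a-5p in iBAT, with log2 ratios of 0.74, 0.77 and 0.81, and was outnumbered by it in all white libraries, with -1.98 to -0.95. The mean difference was 2.27 (exact permutation p = 0.00245, adjusted 0.00306). The ratios to miR-30b-5p (difference 1.46), miR-30c-5p (0.86) and miR-30d-5p (1.83) were also higher in all iBAT libraries than in all white ones, with the same p and adjusted p from the exact test. The ratio of miR-30e-5p to its own 3p arm was 5.50 ± 0.04 in iBAT and 5.16 ± 0.20 in white libraries (log2, SD, n = 3 and 15). By depot, the white means were 5.22 in eWAT, 4.85 in mWAT, 5.38 in iWAT, 5.17 in aWAT and 5.17 in cWAT. The iBAT and white libraries overlapped, since an iWAT library reached 5.56. The difference of 0.34 had an exact permutation p of 0.0123 (adjusted 0.0123). It was lost without iBAT replicate 1 (difference 0.31, adjusted exact permutation p = 0.0588). With the aWAT depot left out, the exact permutation test gave an adjusted p of 0.022 for this ratio and 0.00549 for the other 4.

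Among the 5 white depots the members differed less. The F test called 5 of the 6 members (background 56.7% of all miRNAs tested), miR-30e-5p (adjusted p = 0.00715), miR-30c-5p (0.00896), miR-30d-5p (0.0258), miR-30e-3p (0.0319) and miR-30a-5p (0.0357), while miR-30b-5p had 0.264 (limma). The highest and lowest depot means lay 0.34 to 0.65 apart on the log2 scale over the 6 members. The count fell to 3 with TMM scaling, and to 3 without eWAT replicate 2, eWAT replicate 3, mWAT replicate 1, iWAT replicate 2 or iWAT replicate 3. miR-30d-5p alone lost its call with edgeR (adjusted p = 0.0668) and without mWAT replicate 3 (0.0816, limma). miR-30a-5p alone lost it without eWAT replicate 1 or aWAT replicate 2 (0.135 and 0.0607, limma). miR-30e-3p alone lost it without cWAT replicate 1, 2 or 3 (0.0531, 0.0993 and 0.087, limma). With the aWAT depot left out, without aWAT replicate 3 or with scaling by library total, all 6 were called. miR-30c-5p and miR-30e-5p stayed under 0.05 in each of these.

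By mean normalized count, miR-30e-5p ran iBAT, cWAT, aWAT, iWAT, eWAT and mWAT from high to low. Only the step from iBAT to cWAT was called between neighbours, but the log2 differences of eWAT and mWAT from cWAT, -0.45 and -0.63, were called as well (adjusted p = 0.0193 and 0.00144, limma). miR-30e-3p ran iBAT, cWAT, aWAT, mWAT, eWAT and iWAT, and eWAT was below cWAT (-0.49, adjusted p = 0.0199, limma). The other Nfyc-locus arm, miR-30c-1-3p, was lowest in mWAT as well, with log2 differences from iWAT and cWAT of -1.52 and -1.41 (adjusted p = 0.000917 and 0.00144, limma). miR-30c-5p had eWAT as its highest white depot, 0.61, 0.65 and 0.42 above iWAT, aWAT and cWAT (adjusted p = 0.00768, 0.00421 and 0.0483, limma), while no neighbours below iBAT were called apart.

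miR-30a-5p ran iBAT, eWAT, mWAT, cWAT, iWAT and aWAT, and no neighbours were called apart. In the same miRNA eWAT was above iWAT by 0.43 and above aWAT by 0.50 (adjusted p = 0.0348 and 0.0136, limma). miR-30d-5p ran iBAT, iWAT, cWAT, aWAT, eWAT and mWAT, and the log2 differences of mWAT from iWAT and cWAT were -0.36 and -0.34 (adjusted p = 0.00868 and 0.0105, limma). miR-30b-5p ran iBAT, eWAT, aWAT, iWAT, cWAT and mWAT, and none of its 10 white pairs was called. Among the white depots, aWAT had the largest SD of normalized counts for every member miRNA, and aWAT replicate 3 had the lowest aWAT count of each.

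The authors also compared cWAT with iWAT. In that comparison limma called none of the 436 miRNAs (background 0%), with 54 at an unadjusted p under 0.05, while edgeR called 1, DESeq2 called 12 and the authors' deposited table called 13 of 485. miR-30e-3p had 1173, 1293 and 1258 normalized counts in cWAT, against 936, 900 and 795 in iWAT, with no overlap. Its log2 difference was 0.50 (SE 0.14, adjusted p = 0.104, limma), and the authors' deposited table gave 0.50 with an adjusted p of 0.0143. It was also called with DESeq2 on recovered reads (adjusted p = 0.0206), with scaling by library total (0.55, adjusted p = 0.0437, limma) and without aWAT replicate 1 (adjusted p = 0.026, limma). miR-30e-5p differed by 0.30 (SE 0.12, adjusted p = 0.377, limma) and the libraries overlapped.

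One further measured miRNA outside the family, miR-384-5p from the X chromosome, has the miR-30 seed and shares its first 8 bases with miR-30e-5p.

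miR-384-5p: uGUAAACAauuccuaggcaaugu

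It was rare, with 2 to 30 reads a library. Normalized counts were 15.8 to 24.1 in iBAT, against 1.28 to 3.88 in eWAT and 16.2 to 31.7 in mWAT, so iBAT lay above eWAT and overlapped mWAT. The iWAT libraries had 10.6, 6.46 and 11.8, aWAT had 7.98, 12.9 and 6.24, and cWAT had 13.2, 3.35 and 10.4, all below iBAT. At such low values log2 differences depend on the added count of 1. miR-384-5p was called higher in iBAT against eWAT (2.59, adjusted p = 0.000219, limma) and cWAT (1.19, adjusted p = 0.0435, limma), and the second call was lost with edgeR (0.0694), DESeq2 (0.11), scaling by library total (0.119), a fit of the 2 depots alone (0.108), the authors' deposited table (0.12) and 9 of the 18 fits that left out 1 library (0.0501 to 0.221). Against iWAT and aWAT the differences were 0.97 and 1.06 (adjusted p = 0.0832 and 0.0606, limma), and both were called with a pseudocount of 8 (0.0417 and 0.0295) and without cWAT replicate 2 (0.0421 and 0.0278). The iWAT difference was also called with the 2 depots alone (0.0483), and the aWAT one without aWAT replicate 2 (0.0404). By the rule of the highest Pearson correlation with miR-30e-5p over the 18 libraries on the log2 scale, the 5 closest of 424 miRNAs outside the family were miR-378a-3p (r = 0.992), miR-107-3p (0.985), miR-378a-5p (0.974), miR-203-3p (0.973) and miR-378c (0.969). The 18 libraries fall into iBAT and white fat. Within the 15 white libraries the same correlations were 0.923, 0.681, 0.534, 0.604 and 0.796. miR-378a-3p had 225948 ± 22687 normalized counts in iBAT (SD, n = 3) and 13159 to 35598 in white libraries. Within the family, r with miR-30e-5p over the 15 white libraries was 0.854 for miR-30d-5p, 0.688 for miR-30c-1-3p, 0.663 for miR-30e-3p, 0.458 for miR-30b-3p, 0.38 for miR-30b-5p and 0.243 for miR-30c-2-3p. It was -0.04 for miR-30a-5p, -0.08 for miR-30c-5p, -0.18 for miR-30a-3p and -0.28 for miR-30d-3p.

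Nfyc mRNA was also higher in iBAT than in eWAT. The mRNA values are those of the authors' deposited table, which gives a mean over all libraries, a log2 fold change and its SE per gene but no value per library, so no SD of 4 libraries can be given. In the authors' deposited table Nfyc (ENSMUSG00000032897) had a base mean of 2154 and a log2 difference of 1.47 (SE 0.14, adjusted p = 3.09e-24), which is 2.77-fold. There, 48.0% of the 18947 genes were called and 20.9% were called higher in iBAT, and 6.96% had a log2 difference at least as large. For the same depots miR-30e-5p differed by 2.75, miR-30e-3p by 2.48 and miR-30c-1-3p by 2.65 in other mice and another assay, so the gap to Nfyc was not tested.

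Neither of the other NF-Y subunit genes passed the threshold. By the authors' deposited table, Nfya had a log2 difference of 0.35 (SE 0.31, adjusted p = 0.339) and Nfyb of -0.35 (SE 0.25, adjusted p = 0.233).

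A list of 24 genes that have been reported as miR-30 targets was set beside these values. By the authors' deposited table, 11 of 24 (45.8%) were lower in iBAT, where 27.1% of all genes were, 1 (4.17%) was higher, and 12 were not called. The median log2 difference of the list was -0.38, beside -0.10 over all genes. The lower ones with the largest change were Ccn2, a matricellular growth factor of fibrotic tissue (-2.85, SE 0.24, adjusted p = 1.62e-31), Itgb3, the integrin β3 subunit (-1.66, SE 0.20, adjusted p = 2.49e-15), and Nrip1, a corepressor of oxidative genes in fat (-1.58, SE 0.31, adjusted p = 4.06e-07), all in the authors' deposited table. The other 8 lay between -1.49 and -0.31. The one higher gene was Ppp3cb, a catalytic subunit of the phosphatase calcineurin (1.15, SE 0.18, adjusted p = 4.99e-10 in the authors' deposited table). With p taken from fold change over SE, 11 of 24 were again lower, where 23.4% of all genes were. With fold changes also centred on the median of all genes, 7 of 24 (29.2%) were lower, where 21.2% of all genes were.

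Other tissues moved with the same mRNA comparison. By the authors' deposited table, the 4 brown adipocyte markers (Ucp1, Cidea, Cox8b and Elovl3) and all 8 skeletal muscle markers were called higher in iBAT, the muscle ones by 4.53 to 17.7 on the log2 scale. The visceral markers Wt1, Upk3b and Msln, the white fat marker Lep, all 4 epididymis markers and all 4 macrophage markers were lower. The epididymis markers had log2 differences of -17.8 to -14.3 and the macrophage markers of -1.95 to -1.31. Ucp1, Cidea, Wt1 and Lep were used to set the direction of the comparison, so their signs are not a finding. Of 4 endothelial markers 2 were higher, Kdr and Tie1, and Pecam1 was lower (-0.36, adjusted p = 0.0364). Their part in the differences of Nfyc and the listed targets was not tested.

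**Figure D5:**
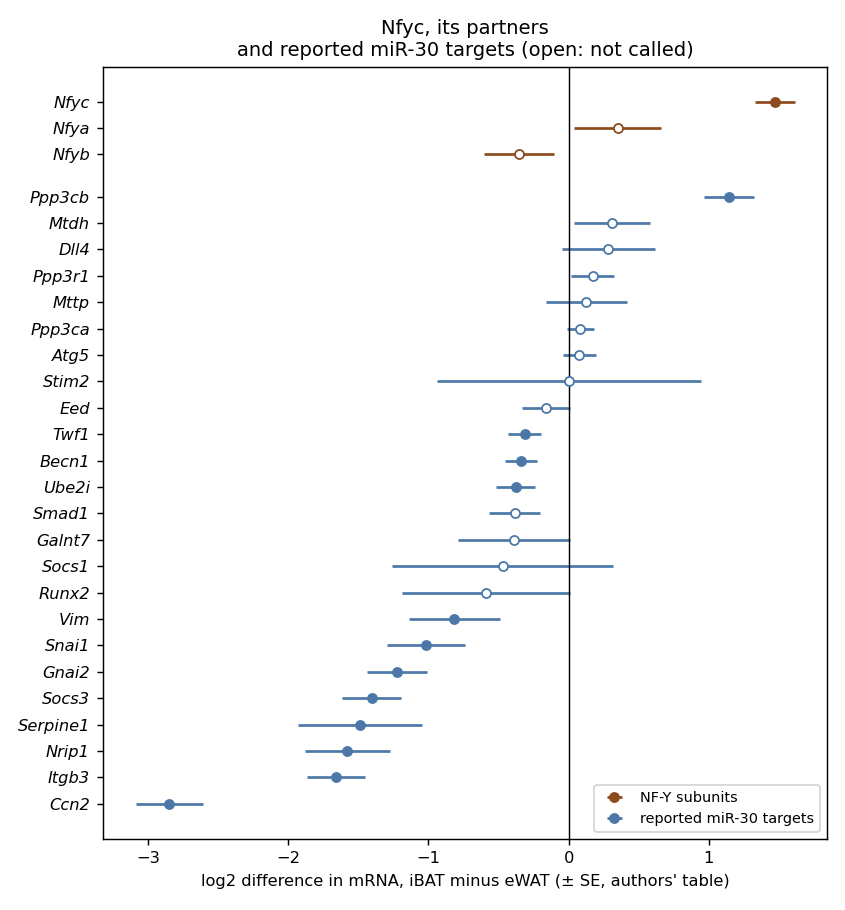
Log2 difference in mRNA between iBAT and eWAT (x axis, bars are the SE, both from the authors' deposited table) for the NF-Y subunits and the 24 reported miR-30 targets (y axis), with open points where the adjusted p was 0.05 or more. Nfyc stands at 1.47 while Nfya and Nfyb lie on either side of 0, and filled target points lie below 0 except that of Ppp3cb.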

How the data were processed

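Groups were taken from the sample labels. Members and lists were chosen with earlier results of these data known, so no list is independent support. Named genes were fixed by rule: the members, every other arm of a Mir30 hairpin, miRNAs with the same seed, the 5 miRNAs with the closest pattern, the other NF-Y subunits, and up to 3 called reported targets in each direction. A further part of the rule is not reported here. The target list comes from background knowledge.

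The miRNA values are a signal, counts divided by a size factor per library, that the authors deposited for 485 miRNAs, with log2 fold changes and adjusted p-values for 6 comparisons of their own. Whole reads were recovered within 0.02 reads for every value, taking the smallest value as 1 read in 6 libraries and as 2 reads in 12. Count tests on these reads were run as alternatives. The mRNA table the authors deposited holds a base mean (a signal), log2 fold changes and p-values for iBAT against eWAT. In both tables the authors also deposited the SE of each fold change, a score with no fixed range. Ucp1, Cidea, Wt1 and Lep set the direction of the mRNA table, where positive is higher in iBAT. Tools and builds in the submitters' processing notes are kallisto 0.45.0, DESeq2, DESeq, GRCm38 and mm10, without roles, and no source used here names the miRNA aligner.

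limma 3.58.1 (R 4.3.3, trend) was fitted to log2(value + 1) for all 6 depots with 12 residual degrees of freedom. edgeR 4.0.16 filterByExpr kept 436 miRNAs and removed 49. Alternatives used edgeR, DESeq2 1.42.0, other scalings, pseudocounts of 0.5 and 8, no filter, only the compared depots, a replicate block and leaving out each library. The authors' own miRNA comparison, fold changes centred on the median of all genes, the alternatives for the other hairpin arms and for cWAT against iWAT, and leaving out the aWAT depot were chosen after seeing the data. The fit was tested on simulated data. Libraries of a depot all differed beyond counting noise, so none was counted as a duplicate. Of the 485 miRNAs, 424 matched a RefSeq mature sequence.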

Additional observations from a re-analysis of the deposited data

How the results depend on the processing

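miR-30e-5p stayed called against each white depot under every alternative. Its log2 difference ranged over 2.51 to 2.76 (eWAT), 2.91 to 2.94 (mWAT), 2.34 to 2.61 (iWAT), 2.33 to 2.63 (aWAT) and 2.00 to 2.34 (cWAT), and scaling by library total gave the low end except against mWAT. Leaving out single libraries gave 2.69 to 2.79, 2.87 to 2.98, 2.53 to 2.71, 2.48 to 2.74 and 2.25 to 2.35. The number of miRNAs called stayed within 1.5 times in all 5 comparisons. The number of members called among white depots was 3 with TMM scaling and 3 to 6 with single libraries left out. The ratio of miR-30e-5p to its 3p arm gave 0.31 to 0.37 with single libraries left out. Reported targets lower in iBAT numbered 11 with p from fold change over SE, and 7 when fold changes were also centred on the median of all genes.

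No consistent pairing of libraries by replicate number was seen. Of 45 same-numbered pairs of libraries from different depots, 12 had correlated deviations over 0.1. The correlations ran from -0.36 to 0.51 with a median of 0.01, and 5 of 18 libraries correlated best with their own number. With 3 libraries per depot, this cannot tell whether same-numbered libraries share an animal or a batch. A replicate block gave 247, 247, 246, 231 and 206 miRNAs called against eWAT, mWAT, iWAT, aWAT and cWAT, beside 240, 242, 237, 232 and 207 without it, and changed no call of miR-30e-5p.

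Some differences that were not called changed sign, and the cause was not tested. Scaling by library total gave -0.19 for miR-30a-5p against eWAT, -0.0074 and -0.15 for miR-30a-3p against aWAT and cWAT, and, for cWAT against iWAT, 0.023 for miR-30b-5p and 0.031 for miR-30d-5p. For miR-30c-2-3p, cWAT against iWAT turned to -0.0137 with edgeR and -0.0143 with TMM scaling. With single libraries left out, miR-30a-5p ranged from -0.031 to 0.0899 against eWAT, and miR-30c-2-3p from -0.122 to 0.0366 against mWAT and from -0.116 to 0.107 against aWAT. For cWAT against iWAT these ranges were -0.00726 to 0.106 for miR-30a-5p, -0.0629 to 0.0314 for miR-30b-5p, -0.0448 to 0.0065 for miR-30d-5p and -0.0342 to 0.0741 for miR-30c-2-3p.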
